A study of Mus musculus with 6 samples.

Results

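The receptors that organoid tumour cells use to read fibroblast growth factors (FGFs), hepatocyte growth factor (HGF) and macrophage-stimulating protein (MSP) were followed in mouse pancreatic ductal adenocarcinoma organoids with and without a knockdown of Jag1. The set comprises 6 genes, the FGF receptors Fgfr1 to Fgfr4, the HGF receptor Met and the MSP receptor Mst1r (also called Ron). Of these, 5 were matched by symbol among the 14254 genes with values, and the same 5 passed the filter on low values that left 13997 genes for testing. Fgfr2 was not analysed here.

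The organoids came from 1 line, KPF_5.3G. Cultures with a control hairpin RNA (shCtrl, genotype given as WT, 3 biological replicates) were set against cultures with a lentiviral hairpin against Jag1, a membrane-bound ligand of Notch receptors (shJag1_3, 3 biological replicates). All 6 cultures grew in the same medium, which held FGF-10 at 100 ng/mL and EGF at 50 ng/mL, and no other treatment is named. A single line and a single Jag1 hairpin are thus compared, so that line-specific and hairpin-specific differences cannot be told apart from the effect of lower Jag1. The study asks how Jag1 acts on tumour-initiating cells of a mixed epithelial and mesenchymal state that carry much of the tetraspanin CD9.

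All of these proteins are receptor tyrosine kinases. A bound ligand brings receptor chains together, the chains phosphorylate each other, and docking proteins such as Frs2, Gab1 and Shc1 pass the signal to the Ras-MAPK and PI3K pathways. Epithelial cells classically answer FGFs from the stroma, and the FGF-10 of organoid media is bound mainly by an epithelial splice form of Fgfr2. Met and Mst1r are close relatives whose ligands are secreted as inactive precursors and cut by serine proteases such as matriptase, which the inhibitors encoded by Spint1 and Spint2 hold in check. Both receptors are known in pancreatic cancer for driving scattering and invasion.

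The libraries held between 22268997 and 35172593 reads. Values are normalised counts, reads divided by 1 size factor per library. Along the leading principal component (55.8% of variance in log2 values) the replicate 1 libraries of both groups lay at one end. On the next component (29.0%) each knockdown scored above the control of its number. Jag1 itself was at 412, 983 and 847 normalised counts in controls 1, 2 and 3, against 226, 321 and 557 in knockdowns 1, 2 and 3. Each knockdown was below the control of its number, yet the groups overlapped and limma did not call the difference (log2 change -1.03, SE 0.45, adjusted p = 0.691). DESeq2 with a replicate term, which compares libraries within each number, did (adjusted p = 0.0063), a call lost without replicate 2 (adjusted p = 0.788) or replicate 3 (adjusted p = 0.0812). Of all 13997 genes, that fit called 636 higher and 364 lower on the 6 libraries. It called 65 and 35 without replicate 2, and 89 and 39 without replicate 3. Epithelial markers were abundant in every library, with a sum over Epcam, Cdh1, Sox9, Cldn7 and 4 keratins between 174442 and 590035 normalised counts.

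Scaled by exon length, Met was the most abundant of the 5 receptors with values in 4 libraries and Fgfr4 in both replicate 1 libraries. Levels here are normalised counts per kb of merged exon. Met ran from 177 to 450.2 per kb over the 6 libraries, Mst1r from 93.5 to 287 and Fgfr4 from 65.8 to 293. Fgfr1 and Fgfr3 were far lower, from 0.929 to 12.8 and from 1.91 to 5.09 per kb. Met exceeded Mst1r in 6 of 6 libraries, by between 1.13-fold and 2.27-fold per length, although their ranges over libraries overlapped. The ranges of Fgfr4 and Mst1r also overlapped, with Fgfr4 above Mst1r in both replicate 1 libraries and below it in the other 4. Every Fgfr4 level lay above every Fgfr1 and Fgfr3 level, and the ranges of Fgfr1 and Fgfr3 overlapped. Of the summed level of the 3 FGF receptors with values, Fgfr4 made up between 92.8% and 96.9% in each library, a share that leaves Fgfr2 out.

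**Figure D1:**
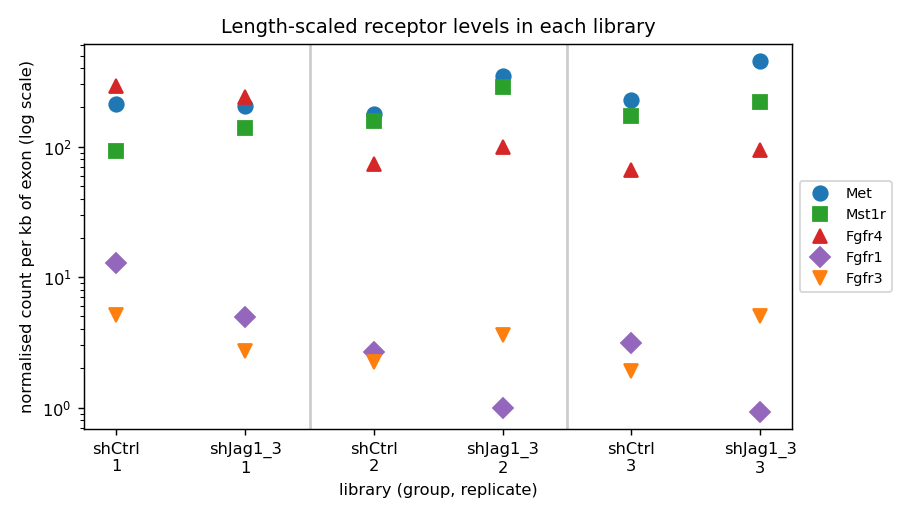
Normalised count per kb of exon (log axis) of 5 receptor genes in each of the 6 libraries, ordered by replicate number and group, with 1 point per library. Met and Mst1r lie on top except in both replicate 1 libraries, where Fgfr4 is highest (293 and 242 per kb), and Fgfr1 and Fgfr3 stay at or below 12.8.

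None of the 5 receptors passed limma, which called 0.0% of all tested genes. None passed limma with the replicate term (0.0143% of genes called, all higher) or DESeq2 with that term (7.14% called). With the 4 libraries of replicates 2 and 3 alone, limma called 1 of the 5, Met, as higher, where 6.04% of all genes were called higher, 3.57% lower and 9.62% in either direction. DESeq2 with the replicate term on those 4 libraries also called Met and no other receptor, where 15.6% of all genes were called, 9.24% higher and 6.32% lower. The groups overlapped for every receptor, while they did not overlap for 11.7% of all tested genes. Of the 5 receptors, 2 kept 1 direction in all 3 pairs of equal replicate number, Mst1r (higher) and Fgfr1 (lower), as did 42.0% of all tested genes, 22.3% higher and 19.7% lower.

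**Figure D2:**
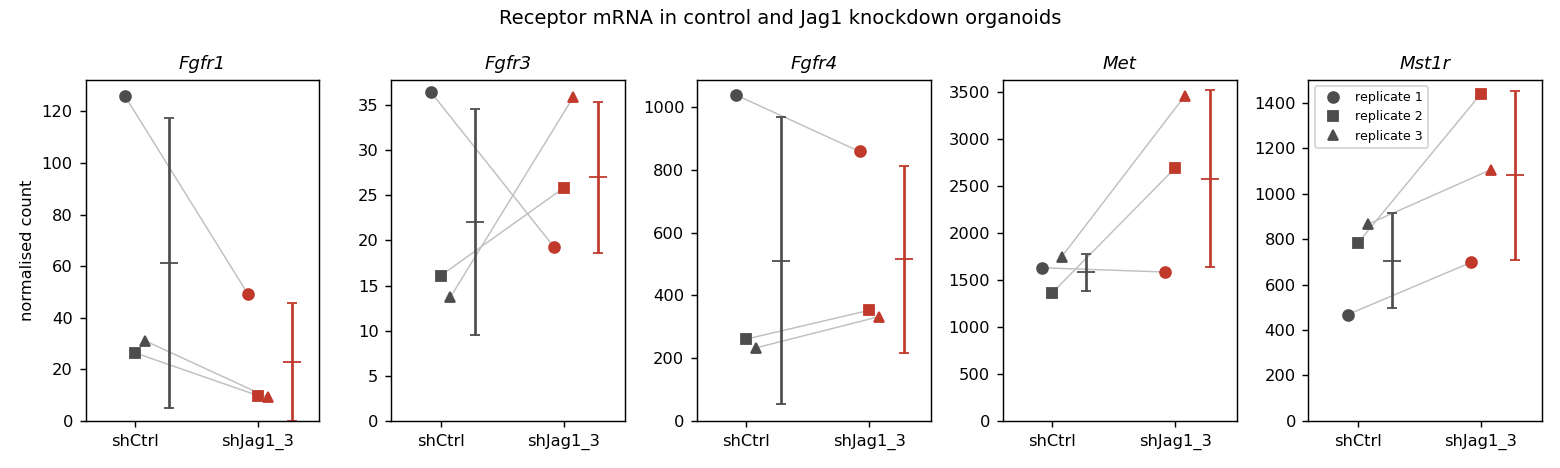
Normalised counts of the 5 receptors in control (grey) and knockdown (red) libraries. Marker shape gives the replicate number, grey lines join libraries of equal number, and bars at the side give the mean and SD of 3 libraries. Met is higher only in knockdowns 2 and 3, Mst1r is higher and Fgfr1 lower in each knockdown than in its numbered control, and both replicate 1 libraries stand high for Fgfr4.

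Met, the receptor of HGF (ENSMUSG00000009376, GRCm38 chr6:17463800-17573980, plus strand, 22 merged exons), was at 1627, 1359 and 1746 normalised counts in controls 1, 2 and 3 and at 1582, 2687 and 3457 in knockdowns 1, 2 and 3. Knockdowns 2 and 3 lay above every control and knockdown 1 lay among the controls. Relative to the control of the same number, knockdown 1 was at 0.972, knockdown 2 at 1.98 and knockdown 3 at 1.98. Group means were 1577.4 ± 199 and 2575.4 ± 942 (SD, n = 3), and the limma change was 0.64 on the log2 scale (SE 0.30, 95% interval -0.07 to 1.36, adjusted p = 0.701). With the replicate term, limma gave an interval of 0.08 to 1.21 and an adjusted p of 0.221, and DESeq2 an interval of 0.13 to 1.16 and an adjusted p of 0.117. On replicates 2 and 3 only, the change was 0.98 (SE 0.20, adjusted p = 0.0395 in limma), and in DESeq2 with the replicate term on the same 4 libraries the adjusted p was 7.63e-05. Met is thus called only where both replicate 1 libraries are left out. An exact two-sided permutation test over the 6 libraries gave p = 0.3, where 3 against 3 cannot go below 0.1.

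The start of Met holds letters that match each of 4 motifs searched, which is why it is shown. Windows ran from 250 bases before to 50 after a RefSeq start (build GRCm38.p6), 32851 windows over all genes, and both strands were read. Motifs were CACCTG (an E-box that Zeb and Snai repressors bind), GTGGGAA (the motif of Rbpj, the DNA-binding partner of Notch receptors), TGANTCA (AP-1) and GGGCGG (GC box), present in 20.2%, 6.38%, 7.81% and 35.7% of all windows. Each stretch below is read 5′ to 3′ on the plus strand with the match in capitals, and no match overlaps another in Met. The E-box match is on the minus strand, 26 bases after the start, and the others lie -28, -54 and -20 bases from it.
Met E-box, chr6:17463970-17463999: cggcccgggccgCAGGTGacccggacggcc
Met Rbpj motif, chr6:17463918-17463947: gcagggcgcgtGTGGGAAggggcggagcag
Met AP-1 motif, chr6:17463892-17463921: tgttgcccggcTGAGTCAcgggccgggcag
Met GC box, chr6:17463925-17463954: gcgtgtgggaagGGGCGGagcagtccgagg
Met has 2 further GC boxes at -239 and -117. A match describes letters only, and no binding was measured here.

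Mst1r, the receptor of MSP (ENSMUSG00000032584, GRCm38 chr9:107906873-107920383, plus strand, 18 merged exons), was at 468, 782 and 865 normalised counts in controls 1, 2 and 3 and at 697, 1439 and 1105 in knockdowns 1, 2 and 3. Each knockdown exceeded the control of its number, by 1.49-fold, 1.84-fold and 1.28-fold. The groups overlapped because knockdown 1 lay below controls 2 and 3. Both replicate 1 libraries were below the other 4, as for 23.3% of all tested genes. Means were 705 ± 209 and 1080.3 ± 371 (SD, n = 3), with a limma log2 change of 0.60 (SE 0.35, 95% interval -0.23 to 1.44, adjusted p = 0.769). With the replicate term the interval was 0.21 to 0.99 (adjusted p = 0.164 in limma), and DESeq2 gave an adjusted p of 0.0538, short of the threshold. In exact two-sided tests, permutation over libraries gave p = 0.3 and flipping signs within the 3 pairs gave p = 0.25, which is as low as 3 pairs can reach.

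One of the Mst1r windows held GC boxes only, of the same 4 motifs, and both are on the minus strand. They are given beside those of Met because, of the 5 receptors with values, Met and Mst1r had the highest levels in replicates 2 and 3.
Mst1r GC box at -71, chr9:107906806-107906835: ttcgacagggctCCGCCCgtagccccgccc
Mst1r GC box at -59, chr9:107906818-107906847: ccgcccgtagccCCGCCCccagccctgccg
The other Mst1r window held none of the motifs. Among the FGF receptors, Fgfr3 and Fgfr4 had windows with GC boxes and no other match, and Fgfr1 and Fgfr2 were not searched.

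Fgfr4, an FGF receptor found mostly on epithelial and liver cells (ENSMUSG00000005320, GRCm38 chr13:55152640-55168759, plus strand), followed the replicate number. It was at 1038.1, 261 and 233 normalised counts in controls 1, 2 and 3 and at 859, 353 and 332 in knockdowns 1, 2 and 3. Both replicate 1 libraries exceeded the other 4 with a ratio of means of 3.22, a pattern that 23.7% of all tested genes shared. Within pairs the knockdown was at 0.827, 1.35 and 1.43 times its control, lower in pair 1 and higher in pairs 2 and 3. The limma log2 change was 0.22 (SE 0.65, adjusted p = 0.969), and its 95% interval of -1.33 to 1.78 holds a doubling in either direction. With the replicate term the interval narrowed to -0.30 to 0.75 (adjusted p = 0.588 in limma).

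Fgfr1, the FGF receptor typical of mesenchymal cells (ENSMUSG00000031565, GRCm38 chr8:25513654-25575718, plus strand), was scarce and was lower in each knockdown than in the control of its number. Controls 1, 2 and 3 held 126, 26.4 and 31.1 normalised counts, and knockdowns 1, 2 and 3 held 49.1, 9.83 and 9.17. These rest on 152, 23 and 25 reads in the controls and on 56, 8 and 12 reads in the knockdowns, so counting error is large in replicates 2 and 3. Knockdowns held 0.390, 0.372 and 0.294 of the count of their control. Both replicate 1 libraries were above the other 4, so the groups overlapped. The limma log2 change was -1.45 (SE 0.85, 95% interval -3.47 to 0.58, adjusted p = 0.769). With the replicate term it was -1.45 (SE 0.31, adjusted p = 0.149) in limma and -1.51 (SE 0.55, adjusted p = 0.0727) in DESeq2. The kit does not mark strand, and 164 of 9875 bases of Fgfr1 exon are shared with the antisense gene Gm16159, which had no values. Within those bases, reads of both genes cannot be told apart.

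Of 7 genes of a mesenchymal state with values, 4 fell by DESeq2 with the replicate term (Zeb1, Zeb2, Snai2 and Cdh2), where 2.6% of all genes were called lower, 0 rose and 3 were not called (median limma change -1.20, all genes 0.00). The 3 not called were Vim, Twist1 and Fn1, with limma changes of -0.48, -0.24 and -0.87. Their control means (15845, 2420 and 5189 normalised counts) exceeded those of the 4 that fell. Limma called 0 of these 7 with or without the replicate term. The repressor Zeb1, taken as an example after its values were seen, was at 260, 891 and 881 normalised counts in controls 1, 2 and 3 and at 112, 349 and 416 in knockdowns 1, 2 and 3. Unlike Fgfr1, Zeb1 was lower in both replicate 1 libraries than in replicates 2 and 3 of the same group, and the part of such a state in the Fgfr1 values was not tested. Fibroblast markers barely registered, with 2 of 9 carrying values (Pdgfra and Pdgfrb, 35.6 to 44.8 normalised counts summed in controls and 28.9 to 45.5 in knockdowns). In bulk RNA, fewer cells of a type and less RNA per cell cannot be told apart.

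Fgfr3 (ENSMUSG00000054252, GRCm38 chr5:33721674-33737068, plus strand), an FGF receptor of epithelia and cartilage, was the other scarce member. It was at 36.5, 16.1 and 13.7 normalised counts in controls 1, 2 and 3 and at 19.3, 25.8 and 35.9 in knockdowns 1, 2 and 3. The highest values belonged to control 1 and knockdown 3, and the ratio within pairs was 0.529, 1.60 and 2.62. The limma log2 change of 0.36 (SE 0.50, 95% interval -0.82 to 1.55, adjusted p = 0.907) was not distinguishable from 0 at 11 to 47 reads per library. On replicates 2 and 3 only, limma gave 0.99 (95% interval 0.02 to 1.96, adjusted p = 0.172), not called. Its exons share 998 of 7158 bases with the opposite-strand gene G630022F23Rik, which had no values.

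**Figure D3:**
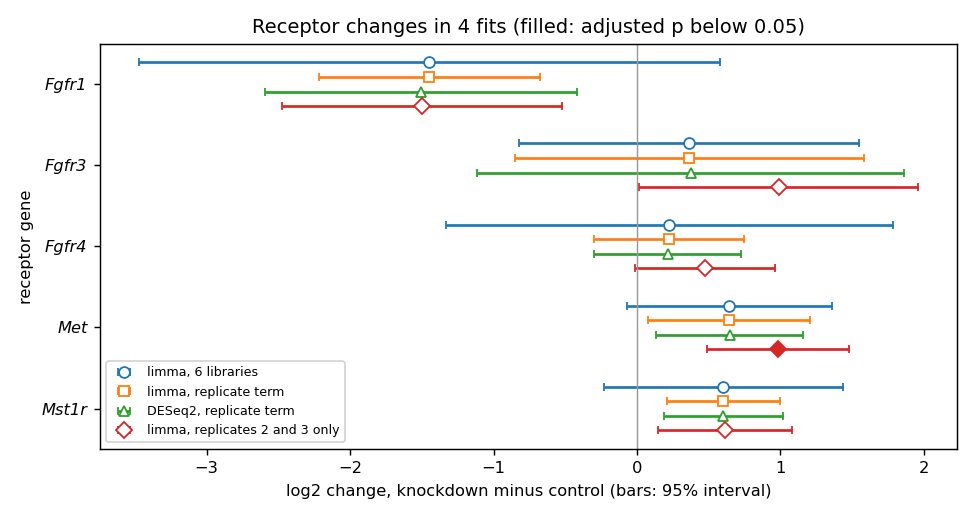
Log2 change (knockdown minus control) of each receptor with its 95% interval in 4 fits. Filled markers have an adjusted p below 0.05, which holds for Met in limma on replicates 2 and 3 only (0.98). The interval of Fgfr1 lies below 0 in 3 of the 4 fits. The exception is limma on all 6 libraries without the replicate term. The intervals of Met and Mst1r lie above 0 in the same 3. That of Fgfr3 lies above 0 only in limma on replicates 2 and 3.

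Around the receptors, 107 genes of 8 pathway lists were tested, of which 19 (17.8%, against 7.14% of all genes) passed in the paired DESeq2 fit, 11 of them higher and 8 lower. Limma called none of them with or without that term. The calls below are therefore those of DESeq2 with the replicate term. Of the 19, 15 were also called without replicate 1 in both groups, 6 without replicate 2 and 5 without replicate 3. Fgf1, Hs6st2, St14, Spint1 and Axl were called in each of these 3 cases. Over all 13997 genes the same fits called 1294 higher and 884 lower without replicate 1. They called 65 and 35 without replicate 2, and 89 and 39 without replicate 3, against 636 and 364 on 6 libraries. Most calls over all genes were thus lost without replicate 2 or 3, not only those of the genes below. These lists were chosen with earlier results of the same data known, so the share is a description.

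Among ligands, Fgf1, which binds every FGF receptor, rose by 2.86 (SE 0.56, adjusted p = 4.43e-05 in DESeq2). It was at 124, 37.9 and 43.6 normalised counts in controls 1, 2 and 3 and at 211, 558 and 607 in knockdowns 1, 2 and 3, with no overlap between groups. On replicates 2 and 3 only, limma called it as well (3.81, adjusted p = 0.00421). Fgfbp1, a carrier that frees FGFs from the matrix, rose by 1.13 (adjusted p = 0.0101 in DESeq2), from 1034.6 ± 498 to 2436.4 ± 1509.1 (SD, n = 3), and lost its call without replicate 2 (adjusted p = 0.740) or replicate 3 (adjusted p = 0.0703). The other 7 of 9 FGF ligand and carrier genes with values were not called (Fgf21 had no adjusted p). Across all genes 4.54% were called higher in the DESeq2 fit. The median limma change of the 9 was -0.29 against 0.00 for all genes. Fgf10 and Hgf were not analysed here.

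Mst1, which encodes MSP, the ligand of Mst1r, was at 3.31, 343 and 296 normalised counts in controls 1, 2 and 3 and at 7.89, 111 and 46.6 in knockdowns 1, 2 and 3. Both replicate 1 libraries were near 0, at 4 and 9 reads. In pairs 2 and 3 the log2 difference was -1.63 and -2.64, which limma called on those replicates (-2.13, adjusted p = 0.0373), where Mst1r changed by 0.62 (adjusted p = 0.102). On all 6 libraries Mst1 was not called (adjusted p = 0.933 in limma and 0.178 in DESeq2 with the replicate term).

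In the list of HGF and MSP ligands, activating proteases and their inhibitors, St14, Prss8 and Spint1 rose. St14, matriptase, was at 4410, 1490 and 1208 normalised counts in controls 1, 2 and 3 and at 8984, 8300 and 6177 in knockdowns 1, 2 and 3. Every knockdown exceeded every control, and the level rose by 1.96 (DESeq2, SE 0.30, adjusted p = 4.54e-08). Spint1, which blocks matriptase and the HGF activator, rose by 1.21 (DESeq2, SE 0.21, adjusted p = 1.81e-06), with means of 2555.9 ± 790 and 5761.9 ± 632 normalised counts (SD, n = 3). Prss8, prostasin, a membrane protease that works with matriptase, rose by 1.18 (adjusted p = 0.0022 in DESeq2), and its groups overlapped. The Prss8 call was lost without replicate 2 (adjusted p = 0.657) or replicate 3 (adjusted p = 0.0883). Of the 8 genes with values in this list, 3 rose, where 4.54% of all genes were called higher, and 5 were not called. The median limma change of the 8 was 0.59 against 0.00 for all genes.

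**Figure D4:**
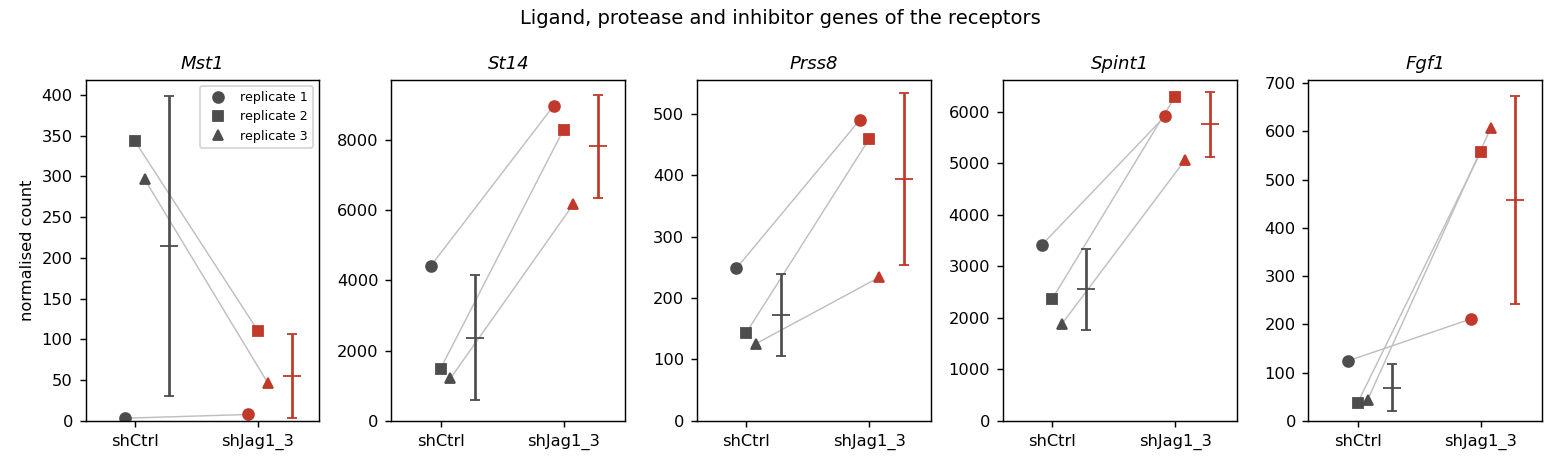
Normalised counts of Mst1 (MSP), the proteases St14 and Prss8, the inhibitor Spint1 and the ligand Fgf1, with grey control and red knockdown libraries, marker shape by replicate number and bars for mean and SD of 3. St14, Spint1 and Fgf1 are higher in each knockdown than in all controls, while Mst1 is near 0 in both replicate 1 libraries.

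Of 8 epithelial markers, 4 rose by DESeq2 with the replicate term (Epcam, Krt8, Krt19 and Cldn7), where 4.54% of all genes were called higher, and 0 fell. The other 4, Krt18, Krt7, Cdh1 and Sox9, were not called, with limma changes of 0.34, 0.55, 0.53 and -0.18. Limma called 0 of these 8 with or without the replicate term. Epcam, an epithelial adhesion molecule taken as an example after its values were seen, was at 8055, 4130 and 3566 normalised counts in controls 1, 2 and 3 and at 12553, 18880 and 8720 in knockdowns 1, 2 and 3. The summed level of these 8 epithelial markers ran from 174442 to 240302 in controls and from 228506 to 590035 in knockdowns, and its part in the receptor and protease values was not tested. Of the immune markers 2 of 8 had values, summing to 119 to 169 in controls and 173 to 1076.4 in knockdowns, most of it Cd68, a lysosomal protein that macrophages hold in large amounts. Cd68 was higher in each of 3 pairs and rose by 1.67 (adjusted p = 0.00801 in DESeq2 with the replicate term, 0.691 in limma), and the other, Cd74, was not called. Ptprc, the pan-leukocyte marker, was not analysed here. Of the endothelial and acinar markers 1 each had values, Tek (6.14 to 62.1 normalised counts) and Cela1 (6.14 to 47.4), and none of the 6 endocrine markers did.

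Partners of Met and Mst1r went in both directions, 2 higher, 2 lower and 7 not called of 11. Among all genes, 4.54% were called higher and 2.6% lower. The plexins Plxnb1 and Plxnb2, semaphorin receptors that bind both kinases, rose by 0.88 (adjusted p = 0.00193) and 0.49 (adjusted p = 0.0414) in DESeq2. Cd44, whose variant forms present HGF to Met, changed by -0.65 on the log2 scale (DESeq2, SE 0.17, adjusted p = 0.00467). It was at 13610, 18240 and 18717 normalised counts in controls 1, 2 and 3 and at 9992, 10862 and 11194 in knockdowns 1, 2 and 3, without overlap. Lrig1, a membrane protein that lowers Met and ErbB receptor levels, changed by -0.71 (DESeq2, SE 0.23, adjusted p = 0.0301), with means of 5138 ± 437 and 3188.4 ± 804 normalised counts (SD, n = 3). The 4 calls were lost without replicate 2 or without replicate 3, and that of Plxnb2 also without replicate 1 (adjusted p = 0.0744).

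FGF co-receptor and heparan sulphate genes had 0 higher, 2 lower and 12 not called of 14. Over all genes, 4.54% were called higher and 2.6% lower. Hs6st2, an enzyme that adds sulphate to the 6-O position of the heparan chains FGFs need, fell by 1.72 (SE 0.29, adjusted p = 1.65e-06 in DESeq2). Controls 1, 2 and 3 held 585, 537 and 429 normalised counts, and knockdowns 1, 2 and 3 held 237, 108 and 144, without overlap. Gpc1, a glypican that carries such chains, fell by 0.70 (adjusted p = 0.04 in DESeq2), a call lost without any 1 of the replicate numbers. Fgfrl1, a receptor relative without a kinase domain, was level at 358 ± 45.1 and 318 ± 17.8 normalised counts (SD, n = 3; log2 change -0.17, adjusted p = 0.902 in limma). Klb was not analysed here.

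Of 14 adaptor and docking genes 0 rose, 2 fell and 12 were not called, against 4.54% higher and 2.6% lower of all genes. Shc1, an adaptor that binds phosphorylated receptors, was at 13329, 12406 and 15934 normalised counts in controls 1, 2 and 3 and at 7664, 8714 and 11741 in knockdowns 1, 2 and 3. It fell by 0.58 (SE 0.17, adjusted p = 0.0145 in DESeq2), and Gab2, a docking protein, fell by 0.84 (adjusted p = 0.0424 in DESeq2). Both calls were lost without any 1 of the replicate numbers. The median limma change of the 14 was -0.28, against 0.00 for all genes.

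None of 14 feedback genes of FGF-MAPK signalling was called on the 6 libraries, with 4.54% of all genes called higher and 2.6% lower by the same DESeq2 fit. Dusp6, an ERK phosphatase, stood apart by replicate, at 893, 21434 and 18300 normalised counts in controls 1, 2 and 3 and at 839, 9450 and 11702 in knockdowns 1, 2 and 3 (adjusted p = 0.0833 in DESeq2). Dusp5 was likewise low in both replicate 1 libraries (875 and 1125) and between 5760 and 7531 in the other 4. Limma on replicates 2 and 3 alone called 1 of the 14 lower, Dusp6 (-0.91, adjusted p = 0.0331), and 1 higher, Spry4 (1.14, adjusted p = 0.0104). That fit called 6.04% of all genes higher and 3.57% lower. Spry4, an inhibitor of receptor signalling, is named here after its values were seen. It was at 1329 normalised counts in control 1 and lower, at 1126, in knockdown 1. On the 6 libraries its adjusted p was 0.156 in DESeq2 with the replicate term.

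Among 6 splicing factors that act on Fgfr2, Esrp1, which favours the epithelial form, rose by 0.79 (SE 0.27, adjusted p = 0.0498 in DESeq2). It was at 2215, 1696 and 1722 normalised counts in controls 1, 2 and 3 and at 2386, 3054 and 4581 in knockdowns 1, 2 and 3. The call was lost without replicate 2 (adjusted p = 0.716) and without replicate 3 (adjusted p = 0.819). The other 5 were not called, where 4.54% of all genes were called higher. Among them the most abundant, Hnrnpa1 and Ptbp1, changed by 0.12 and -0.07 (adjusted p of 0.806 and 0.909 in DESeq2).

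Other receptor tyrosine kinases, 31 with enough reads to test, gave 3 higher, 2 lower and 26 not called. Of the 5 FGF, HGF and MSP receptors 0 were called. The DESeq2 fit with the replicate term called 4.54% of all genes higher and 2.6% lower. At those shares 5 receptors are too few for a comparison. Erbb3, which pairs with Erbb2, rose by 1.12 (DESeq2, SE 0.25, adjusted p = 6.10e-04), with means of 1542.8 ± 272 and 3582.4 ± 1545.8 normalised counts (SD, n = 3). Epha1 and Ltk rose by 2.11 (adjusted p = 2.19e-04) and 1.12 (adjusted p = 0.0226) in DESeq2. Axl, a receptor linked to the mesenchymal state, changed by -2.31 (SE 0.32, adjusted p = 3.83e-10) and Igf1r by -0.82 (adjusted p = 0.035) in DESeq2. Without replicate 3 the calls of Erbb3, Epha1, Ltk and Igf1r were lost, and without replicate 2 those of Erbb3, Ltk and Igf1r. The median limma change of the 31 was -0.07.

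Genes with the most similar profile over the 6 libraries were found as the smallest root mean square difference of centred log2 values, among about 10255 protein-coding genes. Since both replicate 1 libraries stand apart from the others, a near profile describes these 6 libraries only. Met lay nearest to Reln (0.0937 on the log2 scale), Zzef1 (0.0957) and Slc44a1 (0.115), each highest in knockdowns 2 and 3. Mst1r lay nearest to Gprc5a (0.0977), Tm4sf20 (0.0994) and Sertad1 (0.103), each lowest in control 1. Fgfr4 lay nearest to Fut9 (0.108), Tprn (0.129) and Pik3r1 (0.142), all highest in both replicate 1 libraries. The scarce receptors had looser matches, Fgfr3 with Pip5k1b (0.160), Hook1 (0.170) and Papss2 (0.185), and Fgfr1 with Col27a1 (0.284) and Tpst2 (0.399).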

How the data were processed

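Total RNA of 6 organoid cultures was made into libraries with a TruSeq RNA kit, per the labels' protocols. The submitters' processing notes name Trimmomatic, STAR 2.5.2b, DESeq2 1.32.0 and the build GRCm38, and the counting tool and annotation are not given in the sources used here. The authors deposited normalised counts, a signal per gene in which reads were divided by 1 size factor per library. Within 0.001 of a read, 100.0% of values were whole multiples of 1 step, so reads were recovered. The factors equal DESeq2's median-of-ratios factors. All 6 deposited tables were identical, and 1 was used. Of 14302 features, 48 were ERCC spike-ins, which entered no gene test. Positions and exon lengths came from GENCODE M21 (GRCm38), and promoter sequences from RefSeq (GRCm38.p6).

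The main test was limma-trend (limma 3.58.1, R 4.3.3) on log2(normalised count + 1) over all 6 libraries, for 13997 genes with at least 10 in at least 3 libraries, adjusted by Benjamini-Hochberg and called below 0.05. Fold changes on this scale understate changes of low genes. Recovered reads were tested with edgeR 4.0.16 and DESeq2 1.42.0. Deviations from group means of same-numbered libraries correlated across genes at 0.68, 0.57 and 0.44 (replicates 1, 2 and 3), each above 0.1, so the numbers were treated as pairs from the data, since the labels do not state what a number stands for. Control 3 with knockdown 2 (0.38) and control 2 with knockdown 3 (0.37) also passed that threshold. It therefore cannot tell the pairing of replicates 2 and 3 by number from the swapped pairing. The limma, edgeR and DESeq2 fits of all 6 libraries, with and without the replicate term, were run on simulated data. Fits with libraries left out or with another scaling, filter or pseudocount were not.

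Named genes were the receptors, Jag1, list members called by limma or by DESeq2 with the replicate term (at most 5 per list by size), or otherwise the 2 most abundant per length, Fgf10, Hgf, Mst1, Klb and Fgfrl1, and the 3 nearest profiles. An epithelial marker gene and a near profile are not reported here. The receptors and lists were chosen with earlier results of these data known. Alternatives were another pseudocount, filter, scaling or test, the replicate term and libraries left out.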

Additional observations from a re-analysis of the deposited data

How the results depend on the processing

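Without the replicate block limma and edgeR called 0 genes (1021 at an unadjusted p below 0.05 in each), and with the block, which takes the numbers as pairs, each called 2 higher and 0 lower. DESeq2 called 101 higher and 73 lower without the block and 636 higher and 364 lower with it. Leaving out 1 library gave 0 to 210 higher and 0 to 84 lower in limma, the highest without control 1. DESeq2 with the block called 1294 higher and 884 lower without replicate 1, 65 and 35 without replicate 2, and 89 and 39 without replicate 3. Limma on replicates 2 and 3 only called 846 higher and 500 lower. Spike-in scaling called 77 higher and 39 lower and put the all-gene median change at -0.18, with receptor changes of -1.62 (Fgfr1), 0.19 (Fgfr3), 0.04 (Fgfr4), 0.46 (Met) and 0.42 (Mst1r). The cause of these differences in number was not tested.

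Fgfr1 stayed negative in 20 alternatives (-2.20 to -0.75) and Mst1r positive in 21 (0.33 to 0.89), with no call in any. Met stayed positive in 21 (0.39 to 0.98) and was called in limma on replicates 2 and 3 (0.98, adjusted p = 0.0395) and in DESeq2 with the block on the same libraries (0.98, adjusted p = 7.63e-05). Leaving out 1 library or pair gave 0.39 to 0.98 for Met, -0.22 to 0.91 for Fgfr4 and -0.13 to 1.04 for Fgfr3. Fgfr4 was negative without control 2 (-0.08), control 3 (-0.16) or knockdown 1 (-0.22) in limma and in edgeR without the block (-0.0017). Fgfr3 was negative in DESeq2 with the block without replicate 3 (-0.13). At 50 normalised counts the filter removed Fgfr1 and Fgfr3, which then had no value. The block changed the call of no receptor on 6 libraries.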
